A study of Rattus norvegicus with 38 samples.

Results

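Gata1, Nfe2, Rhag and Trim10 are genes known for their part in red cell formation, and their mRNA was followed in blood RNA of rats given acetaminophen or methyl parathion. Their probes were taken by name: each gene had 1 probe whose annotation gives that symbol alone, so that 4 of the 26857 gene probes on the array, and 4 of its 5990 named genes, were described. The probes were 20758079 for Gata1, 21786958 for Nfe2, 21135652 for Rhag and 21459003 for Trim10. In the RefSeq gene table the genes lie on chromosomes X, 7, 9 and 20.

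Acetaminophen (AP) relieves pain and is toxic to the liver in overdose, and methyl parathion (MP) is an organophosphate insecticide that inhibits acetylcholinesterase. Male rats of the strain labelled CDF Fisher 344, about 4 months old, received 1 intraperitoneal dose of AP (1200 mg/kg) or MP (15 mg/kg) in vegetable oil. In each chemical 4 rats were killed at 4 h, 4 at 12 h, 4 at 24 h and 3 at 168 h, and 4 rats given oil alone and killed at 24 h served as its vehicle group, so that the 10 groups hold 38 rats with 1 array each. No group carries a genetic change, and the treated groups of 1 chemical share the same vehicle rats, none of which were killed at 4, 12 or 168 h.

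Leukocytes were caught from the blood with the LeukoLOCK system, and their RNA was depleted of globin mRNA before labelling. Red cell messages were nevertheless bright. Hbb, a beta globin gene, had a mean log2 signal of 20.06 in the 8 vehicle rats, and Alas2, the erythroid enzyme that starts haem synthesis, had 16.78. Both were above background (a signal-to-noise ratio of at least 3) on all 38 arrays. Leukocyte markers were also found, with 9 of the 10 T cell genes, all 3 B cell genes and all 10 neutrophil genes on the array well enough detected to be tested. Between 36.41% and 51.7% of gene probes were above background on an array, and the raw median signal ranged from 176.6 to 389.6.

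Gata1 is a zinc-finger transcription factor without which red cell and platelet precursors do not mature, and it is also used by eosinophils and mast cells. Nfe2 encodes the p45 subunit of the factor NF-E2, which pairs with small Maf proteins and is needed for platelet release. Rhag is the Rh-associated glycoprotein of the red cell membrane, which carries ammonium and is required for the Rh complex to reach the surface. Trim10 is a tripartite motif protein with a RING finger, studied in mouse as a factor in late red cell maturation. In rodents young red cells that still hold RNA circulate in blood, and platelets carry RNA from megakaryocytes.

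The windows from 250 bases before to 50 bases after the start site are printed for Gata1, Rhag and Trim10 because the words bound by GATA factors, by NF-E2 and by factors that use a CACCC box are those by which red cell genes are usually regulated. They are RefSeq sequences of build GRCr8, 5′ to 3′ along the strand of the gene, with matches to the searched words in capitals. The windows lie at chrX:17201387-17201686 on the plus strand for Gata1, at chr9:27594341-27594640 on the minus strand for Rhag and at chr20:1703420-1703719 on the minus strand for Trim10.
Gata1: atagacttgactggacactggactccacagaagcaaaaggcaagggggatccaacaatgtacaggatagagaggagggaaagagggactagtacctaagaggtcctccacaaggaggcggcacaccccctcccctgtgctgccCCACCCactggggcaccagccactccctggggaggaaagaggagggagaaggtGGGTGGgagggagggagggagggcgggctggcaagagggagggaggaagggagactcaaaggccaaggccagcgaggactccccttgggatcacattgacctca
Rhag: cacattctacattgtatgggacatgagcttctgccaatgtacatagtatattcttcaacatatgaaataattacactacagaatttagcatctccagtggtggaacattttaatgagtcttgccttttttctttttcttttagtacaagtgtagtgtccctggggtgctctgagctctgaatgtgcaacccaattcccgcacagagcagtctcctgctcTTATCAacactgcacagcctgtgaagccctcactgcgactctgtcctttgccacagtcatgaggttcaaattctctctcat
Trim10: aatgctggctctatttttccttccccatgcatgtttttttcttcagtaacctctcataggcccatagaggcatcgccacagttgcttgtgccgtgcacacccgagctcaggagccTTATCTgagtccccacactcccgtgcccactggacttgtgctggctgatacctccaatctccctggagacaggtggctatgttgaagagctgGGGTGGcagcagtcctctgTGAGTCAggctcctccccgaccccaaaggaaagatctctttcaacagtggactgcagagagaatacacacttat
The GATA words searched on both strands were AGATAA, the form of it that ends in G (AGATAG), the word TGATAA and its form ending in G (TGATAG). The Rhag window holds 1 of them, read on the opposite strand as TTATCA and starting at -31, and the Trim10 window holds TTATCT at -135. The NF-E2 core TGAGTCA stands at -24 in the Trim10 window. The word CCACCC stands at -107 in the Gata1 window and, on the opposite strand as GGGTGG, at -54, while Trim10 holds GGGTGG at -43. The matches do not overlap each other. Of 33469 rat promoter windows of the same length, 30.3% hold a GATA word, 4.6% hold TGAGTCA and 29.4% hold CCACCC, so that these matches describe the letters and not bound sites. No window is printed for Nfe2.

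The 4 genes were called at different times. After AP, Nfe2 rose 2.13-fold at 4 h and stayed up at 12 h (2.81-fold) and 24 h (2.97-fold), but was back at the vehicle level at 168 h (0.961-fold). Rhag rose 2.67-fold at 4 h, whereas Gata1 and Trim10 passed the test at 168 h alone, at 1.97-fold and 2.85-fold. At 4 h Gata1 was at 1.85-fold and missed the threshold narrowly (adjusted p = 0.0599), so the calls alone do not separate these times. After MP the sole call was Gata1 at 12 h, at 2.11-fold. Calls here have an adjusted p under 0.05 from limma, with Benjamini-Hochberg adjustment over the 12805 tested probes, and a change is given as a log2 difference ± standard error.

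Set against all tested probes, 2 of the 4 genes were called higher at 4 h of AP, where 2.9% of probes were. There all 4 had a positive difference with an unadjusted p under 0.05, a p that 2858 of 12805 probes had in either direction. Such a p was had by 1 of 4 at 12 h (5325 probes), 2 of 4 at 24 h (5535 probes) and 2 of 4 at 168 h (3658 probes). At 24 h these were Nfe2, which was higher (1.57), and Rhag, which was lower (-0.96). At 12 h of AP 1 of 4 was called higher, where 13.8% of probes were, and at 24 h 1 of 4 was, where 14.7% were. At 168 h of AP 2 of the 4 were called, where 3.08% of probes were higher. In the MP rats 1 of 4 was called higher at 12 h, where 3.12% of probes were. None was called at 24 h of MP, where limma called 2.38% of probes in either direction. There 2185 of 12805 probes had an unadjusted p under 0.05, 2 of them among the 4. At 168 h of MP limma called 18.2% of probes and none of the 4. There 4226 of 12805 probes had an unadjusted p under 0.05, 0 of them among the 4. At 4 h of MP limma called 0% of probes. There 1371 of 12805 probes had an unadjusted p under 0.05, 0 of them among the 4, and a fit with array weights called 392 probes, also with 0 of the 4. The comparisons of 1 chemical share its vehicle rats and are not independent of each other.

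Most of these counts over all probes depended on single rats. At 4 h of AP 842 probes were called in either direction, and from 181 (without 4 h rat 3) to 1637 (without 4 h rat 1) in the fits that leave out 1 rat, with moves of over 1.5 times for every rat of the comparison but vehicle rat 3. At 12 h of MP the 1029 calls ran from 260 (without 12 h rat 1) to 1917 (without 12 h rat 2), with such moves for every rat but vehicle rats 3 and 4. At 24 h of MP the 305 calls ran from 17 (without 24 h rat 4) to 890 (without 24 h rat 1), with such moves for every rat but vehicle rat 3 and 24 h rat 2. At 168 h of AP the 1421 calls became 893 without vehicle rat 1 and 403 without 168 h rat 2, and at 168 h of MP the 2334 became 1286 without 168 h rat 2. At 12 and 24 h of AP, with 4389 and 4558 calls, no left-out rat moved the count by 1.5 times. With only the groups compared in the fit, limma called 0 probes at 4 h of AP and at 12 and 24 h of MP, where 2834, 2946 and 1572 had an unadjusted p under 0.05, while array weights called 2113, 3719 and 874.

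**Figure D1:**
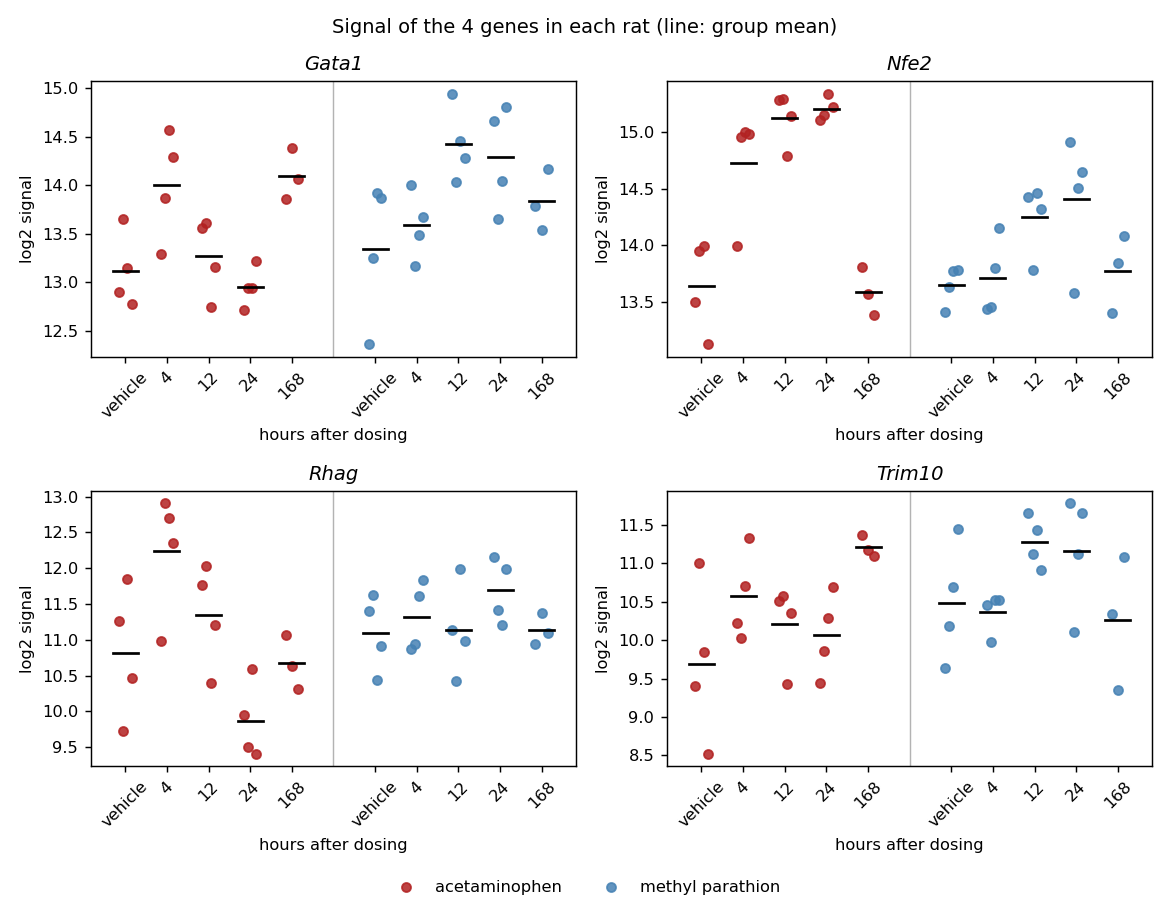
Log2 signal of each gene (vertical axis) in each of the 38 rats (points) by group on the horizontal axis, which gives hours after dosing, with AP rats in red, MP rats in blue and a line at each group mean. The Nfe2 points at 12 and 24 h of AP lie above those of all vehicle rats, and the Rhag points at 24 h of AP are the lowest group.

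Gata1, the first of the transcription factors, was called higher at 168 h of AP and at 12 h of MP. Its log2 signals were 12.90, 13.65, 13.14 and 12.77 in the AP vehicle rats and 13.30, 13.87, 14.57 and 14.28 at 4 h. At 4 h, 3 of 4 rats were above every vehicle rat and 1 was within their range. The change was 0.89 ± 0.29 and missed the threshold (adjusted p = 0.0599). The call was made without vehicle rat 2 or without 4 h rat 1, over a range of 0.70 to 1.12 in the fits that leave out 1 rat.

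The Gata1 signals at 12 h of AP were 13.56, 13.61, 12.75 and 13.16, and those at 24 h were 12.71, 12.94, 12.94 and 13.21. Both groups overlapped the vehicle rats, with changes of 0.15 ± 0.29 (adjusted p = 0.741) and -0.17 ± 0.29 (adjusted p = 0.705). At 168 h the signals were 13.85, 14.38 and 14.06, all above the 4 vehicle rats. That rise was 0.98 ± 0.32 (adjusted p = 0.0407), and no overlap in this direction was seen for 9.67% of probes. Between 24 and 168 h Gata1 rose by 1.15 ± 0.32 (adjusted p = 0.00381), which is the one step between times at which its test was passed. The call against the vehicle rats was lost in 5 of the 7 fits that leave out 1 rat (AP vehicle rats 1, 3 and 4 and 168 h rats 2 and 3), with values from 0.84 to 1.16.

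In the MP vehicle rats Gata1 had log2 signals of 12.36, 13.25, 13.92 and 13.86, the widest spread of this gene in any group (SD 0.723, n = 4). At 4 h of MP they were 14.00, 13.17, 13.49 and 13.67, within the range of the vehicle rats but for 1 rat, and the change was 0.24 ± 0.29 (adjusted p = 0.826). At 12 h they were 14.94, 14.03, 14.45 and 14.28, all above the vehicle rats. The rise of 1.08 ± 0.29 passed the test (adjusted p = 0.0193), and 3.55% of probes lay as far apart in this direction. At 24 h the signals were 14.66, 13.65, 14.05 and 14.80, and at 168 h 13.79, 13.54 and 14.16. These groups overlapped the vehicle rats, with differences of 0.94 ± 0.29 (adjusted p = 0.0788) and 0.48 ± 0.32 (adjusted p = 0.288). The 12 h call was lost without MP vehicle rats 1 or 2 or 12 h rats 1 or 3, over values of 0.75 to 1.27, and the 24 h difference was called without vehicle rat 3 or 24 h rat 2.

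Nfe2, the other transcription factor, was higher at 3 successive times after AP. Its log2 signals were 13.50, 13.95, 13.99 and 13.12 in the AP vehicle rats and 13.99, 14.96, 15.00 and 14.98 at 4 h. Of the 4 h rats 3 were about 1 log2 unit above every vehicle rat, while rat 1 stood at the level of the highest vehicle rat. The rise was 1.09 ± 0.24 (adjusted p = 0.00481).

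The Nfe2 signals at 12 h of AP were 15.28, 15.30, 14.79 and 15.15, and at 24 h they were 15.11, 15.16, 15.35 and 15.22. Both groups lay wholly above the vehicle rats, as did 16.2% of probes at 12 h and 15.6% at 24 h. The rises were 1.49 ± 0.24 (adjusted p = 4.72e-06) and 1.57 ± 0.24 (adjusted p = 1.78e-06). No call of Nfe2 at 4, 12 or 24 h was lost when 1 rat was left out, with the lowest values at 0.92, 1.32 and 1.4. At 168 h the signals were 13.81, 13.56 and 13.38, within the vehicle range, with a difference of -0.06 ± 0.25 (adjusted p = 0.912). The fall between 24 and 168 h was 1.63 ± 0.25 on the log2 scale (adjusted p = 3.9e-06).

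After MP the course of Nfe2 was flatter. The vehicle rats had log2 signals of 13.41, 13.62, 13.77 and 13.78, and the 4 h rats 13.43, 13.45, 13.79 and 14.15, a difference of 0.06 ± 0.24 (adjusted p = 0.959). At 12 h the signals were 14.43, 13.78, 14.47 and 14.32. All 4 were above the vehicle rats, though rat 2 exceeded the highest of them by less than 0.01, and the difference of 0.60 ± 0.24 missed the threshold (adjusted p = 0.106). At 24 h they were 14.91, 13.57, 14.50 and 14.65, where rat 2 stayed among the vehicle rats and the difference was 0.76 ± 0.24 (adjusted p = 0.0777). The 12 h difference was called once 12 h rat 2 was left out, and the 24 h difference once 24 h rat 2 was, with 0.76 and 1.04 as the highest values in such fits. At 168 h the signals were 13.40, 13.84 and 14.08, a difference of 0.13 ± 0.25 (adjusted p = 0.76).

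Rhag, the membrane protein, was called higher at 4 h of AP alone. In the AP vehicle rats its log2 signals were 11.26, 9.72, 11.84 and 10.46, a wide spread (SD 0.927, n = 4) in which rat 2 was not above background. At 4 h they were 10.98, 12.91, 12.70 and 12.35, so that 3 rats exceeded every vehicle rat and rat 1 did not. The rise was 1.41 ± 0.41 (adjusted p = 0.0339). It was lost in 5 of 8 fits without 1 rat (vehicle rats 2 and 4 and 4 h rats 2, 3 and 4), with values of 1.05 to 1.83.

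At 12 h of AP Rhag had signals of 11.77, 12.03, 10.39 and 11.21, a difference of 0.53 ± 0.41 (adjusted p = 0.357). At 24 h they were 9.95, 9.50, 10.59 and 9.41, the last not above background. Between 12 and 24 h Rhag fell by 1.49 ± 0.41 on the log2 scale (adjusted p = 0.0214). Against the vehicle rats the 24 h difference was -0.96 ± 0.41 and missed the threshold (adjusted p = 0.0709), but was called without vehicle rat 2 or without 24 h rat 3, with -1.32 as the lowest value. With all 8 vehicle rats as the control it was -1.09 (adjusted p = 0.0135). At 168 h the signals were 11.07, 10.63 and 10.32, in the middle of the vehicle range (-0.15 ± 0.45, adjusted p = 0.863).

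No Rhag difference after MP passed the test. The MP vehicle rats had signals of 11.40, 11.63, 10.44 and 10.91, and the 4 h rats 10.87, 10.95, 11.61 and 11.84 (0.22 ± 0.41, adjusted p = 0.902). The 12 h rats had 11.14, 10.43, 11.98 and 10.98 (0.04 ± 0.41, adjusted p = 0.973). These groups overlapped widely with the vehicle rats. At 24 h the signals were 12.15, 11.42, 11.21 and 11.98 (0.60 ± 0.41, adjusted p = 0.505), with 2 of 4 rats above every vehicle rat, and at 168 h they were 10.94, 11.37 and 11.10 (0.04 ± 0.45, adjusted p = 0.962). The 95% interval of the 24 h difference ran from -0.25 to 1.44.

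Trim10 varied among rats treated alike about as much as Rhag did, in values not tested against each other. Its residual SD within groups was 0.642 on the log2 scale, larger than that of 70.4% of tested probes, beside 0.628 for Rhag, 0.446 for Gata1 and 0.355 for Nfe2. The log2 signals of the AP vehicle rats were 9.40, 11.01, 9.84 and 8.52, of which rat 4 was not above background. At 4 h of AP they were 10.22, 10.03, 10.70 and 11.33 (0.88 ± 0.43, adjusted p = 0.221), at 12 h 10.50, 10.57, 9.43 and 10.35 (0.52 ± 0.43, adjusted p = 0.386), and at 24 h 9.44, 9.86, 10.28 and 10.69 (0.38 ± 0.43, adjusted p = 0.54). These 3 groups overlapped the vehicle rats. At 168 h the signals were 11.36, 11.17 and 11.09, close to each other (SD 0.141, n = 3) and all above the vehicle rats. The rise was 1.51 ± 0.46 (adjusted p = 0.0312). It was lost in 5 of 7 fits without 1 rat (AP vehicle rats 1 and 4 and each of the 168 h rats), over values of 1.12 to 1.95, and it was 1.12 against all 8 vehicle rats (adjusted p = 0.0707).

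In the MP vehicle rats Trim10 had log2 signals of 9.64, 10.18, 10.69 and 11.45. At 4 h they were 10.45, 9.97, 10.53 and 10.52 (-0.12 ± 0.43, adjusted p = 0.956), and at 12 h 11.65, 11.12, 11.44 and 10.91 (0.79 ± 0.43, adjusted p = 0.269). The 12 h rats were all above 3 of the 4 vehicle rats, and 1 was above all of them. At 24 h the signals were 11.78, 10.10, 11.12 and 11.65 (0.67 ± 0.43, adjusted p = 0.447). At 168 h they were 10.34, 9.35 and 11.08 (-0.23 ± 0.46, adjusted p = 0.762), with rat 2 not above background. No MP group of Trim10 was separated from its vehicle rats.

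The levels of the groups can be put in order for each gene, from low to high mean log2 signal. For Gata1 the order began with 24 h of AP (12.95), the AP vehicle rats (13.12) and 12 h of AP (13.27), and ended with 168 h of AP (14.10), 24 h of MP (14.29) and 12 h of MP (14.43). For Nfe2 it began with 168 h of AP (13.58) and both vehicle groups (13.64 and 13.65) and ended with 4 h (14.73), 12 h (15.13) and 24 h of AP (15.21). For Rhag it ran from 24 h (9.86) and 168 h of AP (10.67) to 24 h of MP (11.69) and 4 h of AP (12.24). For Trim10 it ran from the AP vehicle rats (9.69) to 168 h of AP (11.21) and 12 h of MP (11.28). Neighbours in these orders differed by less than the larger SD of the pair, except 168 h and 12 h of MP for Nfe2 (a gap of 0.48) and 24 h and 168 h of AP for Rhag (a gap of 0.81). The group means spanned 1.48 log2 units for Gata1, 1.63 for Nfe2, 2.37 for Rhag and 1.58 for Trim10.

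**Figure D2:**
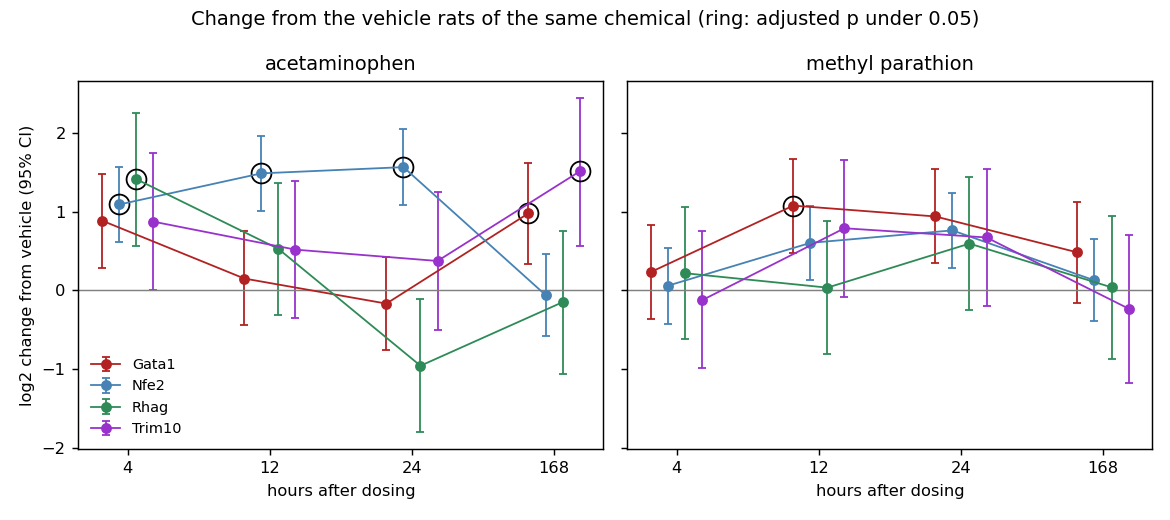
Log2 change from the vehicle rats of the same chemical (vertical axis, with 95% intervals) at each time in hours after dosing (horizontal axis) for the 4 genes, AP on the left and MP on the right, with a ring where the adjusted p is under 0.05. Nfe2 is ringed at 4, 12 and 24 h of AP, Rhag at 4 h of AP, Gata1 and Trim10 at 168 h of AP, and Gata1 at 12 h of MP.

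Whether the chemicals differed was tested as the change after AP minus the change after MP at the same time. At 24 h 2 of the 4 genes were called lower after AP, where 13.8% of probes were. Gata1 differed by -1.11 ± 0.41 (adjusted p = 0.0452) and Rhag by -1.55 ± 0.59 (adjusted p = 0.0479). Nfe2 differed by 0.80 ± 0.33 at that time in the opposite direction, short of the threshold (adjusted p = 0.0728), with a 95% interval of 0.13 to 1.48. Trim10 differed by -0.30 ± 0.61 (adjusted p = 0.763). The Gata1 call was lost in 9 and the Rhag call in 10 of 16 fits without 1 rat, over -1.32 to -0.78 and -1.92 to -1.21, and both were lost with the replicate number as a block, at adjusted p = 0.0508 and 0.059.

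At 4 h limma called 0% of probes for a difference between the chemicals and none of the 4 genes. There 1879 of 12805 probes had an unadjusted p under 0.05, 2 of them among the 4. The larger of these 2 differences was that of Rhag at 1.20 ± 0.59 (adjusted p = 0.338), and Nfe2 differed by 1.03 ± 0.33 (adjusted p = 0.209). At 12 h limma called 11.4% of probes and none of the 4. An unadjusted p under 0.05 was had by 3202 probes, 2 of them among the 4. These 2 were Gata1 at -0.93 ± 0.41 (adjusted p = 0.149) and Nfe2 at 0.88 ± 0.33 (adjusted p = 0.0801). At 168 h limma called 3.4% of probes and none of the 4. An unadjusted p under 0.05 was had by 2699 probes, 1 of them among the 4. That 1 was Trim10, which was 1.74 ± 0.66 higher after AP (adjusted p = 0.119), and it was called without AP vehicle rat 2. The 435 probes called at 168 h became 0 without MP vehicle rat 4, where 2162 had an unadjusted p under 0.05, and 924 without MP 168 h rat 1. They were 154 and 1 without AP vehicle rats 1 and 4, 256, 146 and 127 without AP 168 h rats 1, 2 and 3, and 7 and 2 without MP 168 h rats 2 and 3. At 4 h 346 probes were called without AP 4 h rat 1, and at 12 h 946 were called without AP vehicle rat 4, beside 1463 as reported. The vehicle groups of the chemicals, treated alike, were compared in the same way. limma called 0% of probes between them, 1378 of 12805 had an unadjusted p under 0.05, and 0 of the 4 genes did. Trim10 was the farthest apart of the 4, by -0.79 ± 0.43 (adjusted p = 0.531).

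Steps between successive times need no vehicle rats. From 4 to 12 h of AP, limma called 26.3% of probes and none of the 4. An unadjusted p under 0.05 was had by 4588 of 12805 probes, 2 of them among the 4. Gata1 and Rhag then differed from their 4 h level by -0.74 ± 0.29 (adjusted p = 0.061) and -0.89 ± 0.41 (adjusted p = 0.118), while Nfe2 differed by 0.40 ± 0.24 (adjusted p = 0.241). From 12 to 24 h Rhag was the 1 of 4 that fell, where 3.49% of probes did. From 24 to 168 h 1 of the 4 rose, Gata1, where 18.4% of probes did, and 1 fell, Nfe2, where 19.3% did. Trim10 differed over this step by 1.14 ± 0.46 (adjusted p = 0.0507). In the MP rats limma called none of the 4 at any step, with 1.29%, 0.718% and 0.0312% of probes called from 4 to 12 h, 12 to 24 h and 24 to 168 h. At an unadjusted p under 0.05 stood 3, 0 and 1 of the 4, beside 2676, 2228 and 2417 of all 12805 probes. The 3 genes of the first step were Gata1 at 0.84 ± 0.29 (adjusted p = 0.106), Nfe2 at 0.54 ± 0.24 (adjusted p = 0.185) and Trim10 at 0.91 ± 0.43 (adjusted p = 0.218).

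Within 1 array the difference between a pair of genes does not depend on a factor common to all probes of the array. It can still depend on the normalization, which does not move all probes by the same amount. The log2 signal of Nfe2 minus that of Gata1 was 0.60, 0.29, 0.85 and 0.35 in the AP vehicle rats and 0.69, 1.09, 0.43 and 0.70 at 4 h of AP. It was 1.72, 1.68, 2.04 and 1.99 at 12 h and 2.40, 2.22, 2.41 and 2.01 at 24 h, above all vehicle rats. At 168 h it was -0.05, -0.82 and -0.68, below all of them. Since probes differ in brightness, the change of this difference has a meaning and its level has none. Turned as Gata1 minus Nfe2, the change was -1.34 at 12 h and -1.74 at 24 h (two-sided exact permutation p = 0.0286 each, the smallest that 4 against 4 rats allow) and 1.04 at 168 h (exact p = 0.0571, the smallest for 3 against 4). Over all 48 pairs and comparisons the adjusted p of these were 0.343, 0.343 and 0.392. Nfe2 against Rhag lay above all vehicle rats at 24 h of AP, by 2.53 (exact p = 0.0286), and Nfe2 against Trim10 did at 12 h, by 0.97 (exact p = 0.0286), with the same adjusted p of 0.343. Against Trim10 at 168 h it lay below all vehicle rats, by -1.57 (exact p = 0.0571, adjusted p = 0.392). None of the 48 passed the adjusted threshold. In the MP rats no pair was separated from the vehicle rats at any time.

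**Figure D3:**
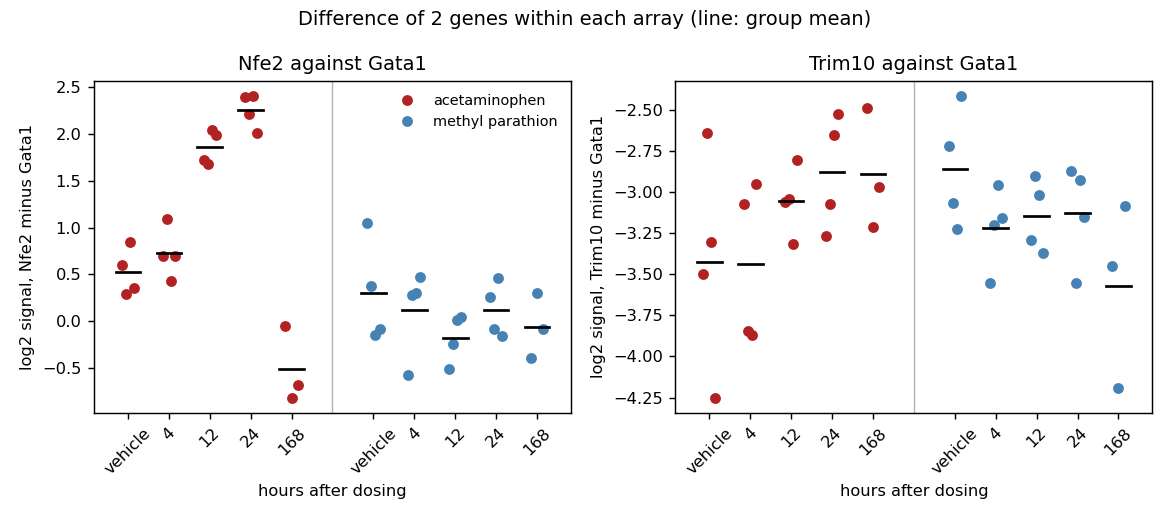
Difference of log2 signals within each array (vertical axes), Nfe2 minus Gata1 on the left and Trim10 minus Gata1 on the right, for each rat by hours after dosing (horizontal axis), with AP in red, MP in blue and lines at group means. Nfe2 minus Gata1 lies at 1.68 to 2.41 in the 8 rats at 12 and 24 h of AP and at -0.05 or below at 168 h of AP.

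How the 4 genes varied among rats of the same group was measured by correlating deviations from the group means over the 38 arrays, for all 6 pairs, with permutation tests within groups (100000 resamples) and Benjamini-Hochberg adjustment over the 6. Gata1 and Trim10 had r = 0.79, the highest under quantile normalization but not under median centring (p = 1e-05, the smallest these permutations can give, adjusted p = 6e-05) and rho = 0.81 (adjusted p = 6e-05). Gata1 and Nfe2 had r = 0.66 (p = 8e-05, adjusted p = 0.00024) and rho = 0.65 (adjusted p = 0.0002). Nfe2 and Trim10 had r = 0.65 (p = 0.00015, adjusted p = 0.0003) and rho = 0.70 (adjusted p = 9e-05), and Nfe2 and Rhag r = 0.56 (p = 0.00283, adjusted p = 0.00424) and rho = 0.56 (adjusted p = 0.00232). Rhag was not shown to vary with Gata1, at r = 0.16 (p = 0.427) and rho = 0.18 (p = 0.352), nor with Trim10, at r = 0.05 (p = 0.805) and rho = 0.16 (p = 0.401).

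Without the 2 arrays farthest from the median of the first gene, the r values of the 4 called pairs were 0.80, 0.63, 0.62 and 0.50 in that order. Within the AP arrays they were 0.74, 0.75, 0.66 and 0.63, and within the MP arrays 0.84, 0.61, 0.64 and 0.51. The deviations of Gata1 and Trim10 also ran against those of the log2 raw median signal of the array, with r of -0.53 and -0.52, beside -0.22 for Nfe2 and 0.03 for Rhag. With that regression removed the r of Gata1 and Trim10 was 0.71. With median centring in place of quantile normalization the order of the pairs was another. Nfe2 and Rhag then had the highest r, 0.76 (permutation test, adjusted p = 6e-05), Gata1 and Trim10 had 0.61 (adjusted p = 0.0007) and Gata1 and Nfe2 had 0.61 (adjusted p = 0.00063). The r of Nfe2 and Trim10 fell short of the threshold at 0.41 (adjusted p = 0.0665), as did that of Gata1 and Rhag at 0.34 (adjusted p = 0.0922) and that of Rhag and Trim10 at 0.08 (adjusted p = 0.764). Beyond this the part of array signal in these relations was not tested.

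Over all 38 arrays, group differences included, Gata1 and Trim10 had r = 0.83, and Trim10 was the 13th gene by likeness to Gata1 among 3498 named probes. Nfe2 had r of 0.07 with Gata1, 0.16 with Rhag and 0.17 with Trim10, so that the relation within groups was not seen over all arrays. These r describe arrays that share groups and normalization, and no p is given for them.

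The 5 named genes most like each of the 4, by Pearson r over the 38 arrays among 3495 candidate probes, differed by gene. For Gata1 they were Selenbp1 (0.90), a selenium-binding protein, Nrtn (0.90), the growth factor neurturin, Mpst (0.89), a sulfurtransferase, Slc22a4 (0.89), a carrier of ergothioneine, and Map1lc3b (0.88), a protein of autophagosomes. For Trim10 they were Plekhb1 (0.92), Car2 (0.91), the carbonic anhydrase 2 of red cells, Selenbp1 (0.90), Rnf10 (0.90) and Slc22a4 (0.89). Selenbp1 and Slc22a4 stand in both sets. For Nfe2 they were Ifngr1 (0.92), a chain of the interferon gamma receptor, Rab11a (0.91), a GTPase of recycling endosomes, Xdh (0.90), xanthine dehydrogenase, Prkab1 (0.89), a subunit of AMP-activated kinase, and Sqstm1 (0.88), an autophagy receptor. For Rhag they were Serpinb6a (0.91), Kcns3 (0.91), a potassium channel subunit, Gng11 (0.91), a G protein gamma chain, Ppbp (0.87), a chemokine of platelet granules, and Bgn (0.85), the proteoglycan biglycan. With the group means removed the r of these genes lay between 0.61 and 0.91. By Spearman rho the sets were the same for Gata1, Nfe2 and Trim10, while Tax1bp1 and Rab27b took the places of Ppbp and Bgn for Rhag.

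**Figure D4:**
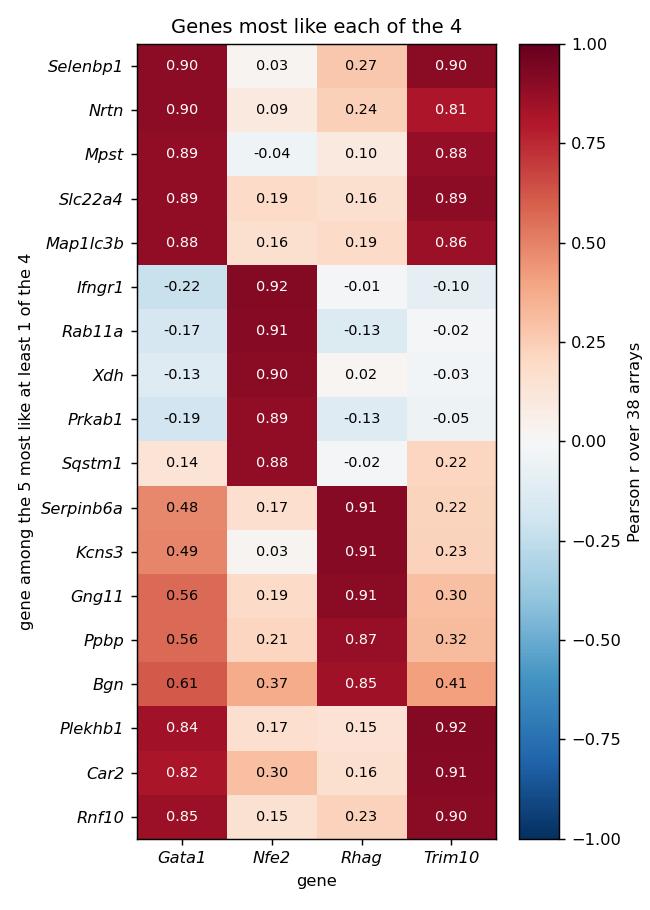
Pearson r over 38 arrays (colour and printed number) between each of the 4 genes (horizontal axis) and the genes that are among the 5 most like at least 1 of them (vertical axis). The genes most like Gata1 and those most like Trim10 are high in both columns, from 0.81 to 0.92, whereas those most like Nfe2 and those most like Rhag reach 0.61 at most in the other columns.

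The genes of red cell and platelet lists were set beside the 4 in the same way. Rhd, the Rh antigen that needs Rhag at the membrane, had r = 0.86 with Trim10 and 0.76 with Gata1, but 0.17 with Rhag. Aqp1, the red cell water channel, had r = 0.85 with Gata1 and 0.85 with Trim10, and 0.15 with Rhag. Alas2 had r = 0.63 with Trim10, 0.50 with Gata1 and 0.11 with Rhag, and Hbb, whose message was a target of the depletion, had 0.46, 0.32 and -0.02. Slc4a1, another red cell membrane gene, had 0.08, 0.003 and -0.17. High r was not limited to red cell genes. Of 11 tested hepatocyte genes, Ahsg had 0.765 with Trim10 and 0.649 with Gata1, and Fgb 0.692 and 0.57. The medians of those 11 were -0.07 and -0.18. Over whole lists the r spread widely. The 7 membrane genes had a median r of 0.27 with Gata1 (-0.5 to 0.85), 0.16 with Trim10 (-0.25 to 0.86) and 0.1 with Rhag (-0.17 to 0.48). The 8 haem and globin genes had medians of 0.48, 0.45 and 0.16, and the 8 other erythroid genes 0.57, 0.64 and 0.18. The 2 tested erythroid transcription factors had 0.13, 0.05 and 0.09. Rhag instead went with part of the platelet list. The 9 tested platelet genes had a median r of 0.74 with Rhag (-0.48 to 0.87), beside 0.54 with Nfe2, 0.16 with Gata1 and 0.08 with Trim10. Ltbp1, which binds latent TGF-beta, had r = 0.82 with Rhag, P2ry12, the platelet ADP receptor, had 0.79, and Gp5, platelet glycoprotein V, had 0.74. In contrast Selp, P-selectin, had -0.48, Tbxas1, thromboxane synthase, had -0.305, and F2rl2, a thrombin receptor, had 0.07. With the group means removed the r with Rhag was -0.17 for Selp, 0.05 for Tbxas1 and 0.565 for F2rl2. The rises of these genes after AP are given below. The 11 natural killer genes had a median r of 0.65 with Rhag. Nfe2 had a median r of 0.69 with the 10 neutrophil genes and of -0.64 with the 9 T cell genes. Its medians with the erythroid lists were 0.26 (membrane), 0.04 (haem and globin), 0.32 (other erythroid) and -0.21 (transcription factors). Once group means were removed these were 0.32, 0.23, 0.53 and 0.23. Nfe2 then had medians of 0.26 with neutrophil, -0.44 with T cell and 0.45 with platelet genes. Those of Rhag were then 0.35 with natural killer and 0.73 with platelet genes.

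Leukocyte markers were called at every time at which any of the 4 genes was called, and platelet markers at all of those times but 168 h of AP. At 168 h of AP, where Gata1 and Trim10 were called, 0 of 9 platelet genes were higher. There 1 of 10 neutrophil genes was higher (0 with median centring), and 4 of 9 T cell genes were lower (8 with median centring). As a background for their counts, the share of all tested probes called lower was 3.68%, 20.5%, 20.9% and 8.02% at 4, 12, 24 and 168 h of AP and 4.92%, 1.66% and 9.13% at 12, 24 and 168 h of MP, and the share called higher, where not yet given, was 0.726% and 9.1% at 24 and 168 h of MP. Of the 9 tested platelet genes, 5 were higher at 4 h of AP, 4 at 12 h, 3 at 24 h and 0 at 168 h, with a median change of 1.63 at 4 h beside -0.03 over all tested probes. Ltbp1 rose by 1.95 ± 0.41 (adjusted p = 0.00437) and Ppbp by 1.60 ± 0.38 (adjusted p = 0.00943, lost with median centring at 0.0525) at 4 h. F2rl2, a thrombin receptor, rose by 2.92 ± 0.41 at 12 h (adjusted p = 5.24e-07), and Tbxas1, thromboxane synthase, by 1.4 ± 0.27 at 12 h (adjusted p = 9.38e-05) and 2.63 ± 0.27 at 24 h (adjusted p = 1.76e-09). Selp was not well above background in any AP vehicle rat and was at least 8.14-fold higher at 24 h (adjusted p = 3.59e-06). After MP 1 platelet gene was higher at 12 h, Tbxas1 at 1.08 ± 0.27 (adjusted p = 0.0133, lost with median centring at 0.108), and 0 at the other times. The log2 of the summed platelet signals ranged from 13.92 to 15.32 in AP vehicle rats, from 14.87 to 16.79 at 4 h, from 15.96 to 16.29 at 12 h and from 15.49 to 15.88 at 24 h.

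Of the 10 neutrophil genes 9 were higher at 12 h and 9 at 24 h of AP, the times of highest Nfe2, and 4 at 12 h of MP (2 with median centring). Their summed log2 signal ran from 20.24 to 20.75 in AP vehicle rats, from 21.57 to 21.95 at 12 h and from 21.54 to 22.02 at 24 h. All 9 T cell genes were lower at 12 h of AP, at 24 h of AP and at 12 h of MP. At 4 and 168 h of AP 6 and 4 of them were lower (3 and 8 with median centring). Among the 3 B cell genes 3, 2 and 3 were lower at 4, 12 and 24 h of AP, and 1 at 12 h of MP. Among the 11 natural killer genes 1, 3 and 10 were lower at 4, 12 and 24 h of AP (0, 1 and 10 with median centring). Another 1 was higher at 4 h and 1 at 12 h (0 and 0 with median centring). Of the 7 genes of eosinophils, basophils and mast cells, cells that also use Gata1, 2 were lower at 4 h of AP, 4 at 12 h and 4 at 24 h, with 1 higher at 24 h, and after MP 1 was lower at 12 h and 1 higher at 168 h. Hpgds, which makes prostaglandin D in mast cells, fell by 2.03 ± 0.39 at 4 h (adjusted p = 0.00236), and Fcer1a, a chain of the IgE receptor, which was not well above background in any 4 h rat, was at least 3.31-fold lower (adjusted p = 0.0265). Mcpt8, a basophil protease in rodents, fell by 2.0 ± 0.34 at 12 h (adjusted p = 1.41e-05) and by 1.87 ± 0.34 at 24 h (adjusted p = 3.19e-05). Hdc, which makes histamine, was called lower at 12 h of AP (adjusted p = 8.56e-06), where 1 of 4 rats was above background, so that no size is given for its fall. At 12 h of MP, with 3 of 4 rats above background, it fell by 2.13 ± 0.64 (adjusted p = 0.0345). Alox5, which makes leukotrienes and is shared with neutrophils, rose by 3.31 ± 0.50 at 24 h of AP (adjusted p = 2.01e-06), and Prg2, an eosinophil granule protein, by 1.81 ± 0.57 at 168 h of MP (adjusted p = 0.0236). Kit, a receptor of mast cells and progenitors, was above background on 0 of 38 arrays. In blood of mixed cells, fewer cells of a type and less RNA per cell cannot be told apart, and the part of these markers in the changes of the 4 genes was not tested. How much red cell and platelet RNA passed leukocyte capture and globin depletion in each rat is not given. The changes are therefore those of the caught RNA and not of whole blood.

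The other 25 tested erythroid genes showed few calls. Higher and lower numbered 1 and 0 at 4 h of AP, 3 and 1 at 12 h, 2 and 5 at 24 h and 1 and 1 at 168 h. After MP they numbered 0 and 0 at 4 h, 2 and 0 at 12 h, 1 and 0 at 24 h and 2 and 2 at 168 h. Their median change lay between -0.21 (168 h of MP) and 0.28 (12 h of AP). The genes called higher in the first day of AP have roles in many cells. Cited2, a transcriptional co-regulator, rose by 0.61 ± 0.16 at 4 h (adjusted p = 0.0142), 0.97 ± 0.16 at 12 h (adjusted p = 6.29e-06) and 0.70 ± 0.16 at 24 h (adjusted p = 0.000484). Slc2a1, a glucose carrier, rose by 0.56 ± 0.15 at 12 h (adjusted p = 0.00264) and 1.02 ± 0.15 at 24 h (adjusted p = 9.66e-07), and Ppp1r15a, a stress-induced phosphatase subunit, by 0.60 ± 0.24 at 12 h (adjusted p = 0.0493). At 12 h of MP Ppp1r15a rose by 1.11 ± 0.24 (adjusted p = 0.00581) and Cited2 by 0.53 ± 0.16 (adjusted p = 0.0321), and at 168 h of MP Cited2 rose by 0.52 ± 0.17 (adjusted p = 0.029). Median centring ended the calls of Cited2 at 4 h of AP (adjusted p = 0.247), 12 h of MP (adjusted p = 0.198) and 168 h of MP (adjusted p = 0.18) and that of Ppp1r15a at 12 h of AP (adjusted p = 0.0945).

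Of the haem and globin genes, Hbe1, an embryonic-type beta globin, fell by 1.38 ± 0.24 at 12 h (adjusted p = 2.33e-05) and fell by 2.15 ± 0.24 at 24 h of AP (adjusted p = 9.56e-09). It then stood above the vehicle rats at 168 h, by 0.86 ± 0.26 after AP (adjusted p = 0.031) and 1.02 ± 0.26 after MP (adjusted p = 0.00695). Globin probes can take up message of related globin genes, which limits what a single name means here. Alad, the second enzyme of haem synthesis, fell by 0.92 ± 0.24 at 24 h of AP (adjusted p = 0.00229) and rose by 0.89 ± 0.24 at 24 h of MP (adjusted p = 0.0406). With median centring the calls of Hbe1 at 168 h of AP (0.45, adjusted p = 0.237) and Alad at 24 h of MP (0.57, adjusted p = 0.183) were lost.

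Among the red cell membrane genes at 24 h of AP, Xk, which carries the Kx antigen, was at least 2.61-fold lower (adjusted p = 0.0356) and Slc14a1, the urea carrier, at least 2.56-fold lower (adjusted p = 0.0302), neither being well above background in any of those rats. Slc14a1 was above background in 2 of the 4 vehicle rats. Cd47, an integrin-associated protein found on many cells, fell by 0.81 ± 0.26 at 168 h of AP (adjusted p = 0.0409) and by 0.80 ± 0.26 at 168 h of MP (adjusted p = 0.0301). With median centring the call at 168 h of AP was kept (adjusted p = 0.0169) and that at 168 h of MP was lost (adjusted p = 0.0566). Bnip3l, which clears mitochondria from young red cells, fell by 1.29 ± 0.30 at 168 h of MP (adjusted p = 0.00369). Gata2, the factor that precedes Gata1 in progenitors and stays on in mast cells and basophils, was at least 4.65-fold lower at 24 h of AP (adjusted p = 0.00104) and was not well above background there.

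Partners of Nfe2 and relatives of Rhag were measured by a few probes. Nfe2l2, which like Nfe2 pairs with small Maf proteins and switches on genes against oxidative stress, rose by 1.09 ± 0.16 at 12 h (adjusted p = 1.6e-06) and 0.83 ± 0.16 at 24 h of AP (adjusted p = 8.46e-05). Mafk, one of those small Maf proteins, was above background on 0 of 38 arrays. Of the 3 relatives of Rhag, Rhbg, an ammonium carrier of epithelia, rose by 0.77 ± 0.30 at 24 h of AP (adjusted p = 0.0422), a call that median centring ended (adjusted p = 0.123). Rhcg, another of them, was at least 3.73-fold lower at 168 h of MP (adjusted p = 0.0386) and was not well above background there.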

How the data were processed

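Blood leukocyte RNA was measured on 38 single-channel Applied Biosystems arrays, per the labels' protocols. Each array's deposited file gives a linear intensity for every probe, unscaled, and a signal-to-noise score. The deposited flags, of other kind, grade spot quality and were used as a filter. The authors' table of the series is on the log2 scale, and it matched quantile-normalized intensities after log2 to within 5e-09. The genome build of the array and the scan dates are not given in the sources used here, so that no batch was tested and no coordinates of probes are printed.

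Values under the 5th percentile were lifted to it (log2 6.404). Flags of 5000 and above removed 0.9598% of values, none of the 4 genes. A probe entered the test if its signal-to-noise score reached 3 in most arrays of some group and no group was left with a single value (12805 of 26857 probes did). Exactly 1 symbol was known for 6104 probes. limma 3.58.1 in R 4.3.3 fitted 1 factor of 10 groups with a variance trend (28 residual and 6.31 prior degrees of freedom), with two-sided p adjusted by Benjamini-Hochberg over the 12805 probes and a threshold of 0.05. Relations and permutation tests used scipy 1.17.1. The number of arrays limits the precision.

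The 4 genes and the marker lists were chosen with earlier results of these data known. Named beside the 4 were the 5 probes most like each, up to 3 called members per comparison of the erythroid, Nfe2 partner and Rh lists (smallest p), and up to 2 of the platelet list and of the eosinophil, basophil and mast cell list. Alad, Alas2, Aqp1, Rhd, Hbb, Slc4a1, Ahsg, Fgb, Gp5, P2ry12, Ltbp1, Selp, Kit and Mafk were also named for likeness or detection after their values were seen. Genes not above background on any array of a group get a lower bound of the fold, taken against the dim group's mean of, per array, the higher of the lowest detected signal and the probe's own. Ratios within arrays were added after seeing the data. The promoter windows are from a RefSeq table of GRCr8. Each treated rat was checked for deviations shared with the same-numbered vehicle rat of its chemical. Over 30 pairs of rats r ran from -0.4 to 0.21, with 9 above 0.1. No pairs of different numbers were set beside them, so that this check cannot decide whether the numbers pair the rats. The fit was tested on simulated data before use.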

Additional observations from a re-analysis of the deposited data

Results flagged for a closer look

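In the group of 4 h of AP, the lowest Nfe2 signal, 13.99 in rat 1, was apart from the other 3 by more than Dixon's 95% limit. In the group of 4 h of MP, the lowest Trim10 signal, 9.97 in rat 2, was apart in the same way. These were 2 of the 32 sets of 4 rats examined, and chance gives such a gap in about 1 of 20.

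The change of Gata1 at 24 h differed between the chemicals by -1.11 on the log2 scale (AP minus MP, limma adjusted p = 0.0452). Gata1 was at the vehicle level in AP rats (-0.17) and above it in MP rats (0.94). The change of Rhag at 24 h differed by -1.55 (limma adjusted p = 0.0479), with -0.96 after AP and 0.60 after MP. None of these 4 changes passed the test by itself.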

How the results depend on the processing

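Of 1132 values recomputed under the alternatives and without each rat, 988 kept their direction and side of the threshold (for counts, within 1.5 times), and 38 changed sign, none of those a called difference. Keeping flagged spots, no floor and stricter detection changed no call and no sign of the 4 genes.

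Median centring in place of quantile normalization ended the calls of Nfe2 (0.97, adjusted p = 0.0501) and Rhag (1.27, 0.144) at 4 h of AP, Gata1 (0.58, 0.137) and Trim10 (1.09, 0.0654) at 168 h of AP, and the 24 h differences between chemicals of Gata1 (-0.85, 0.0957) and Rhag (-1.27, 0.177), and it called that of Nfe2 (1.23, 0.0215). It turned Rhag at 12 h (-0.25) and 168 h of MP (-0.33) and the 24 h difference of Trim10 (0.019). It moved the median of all probes to -0.11, -0.38, -0.25, -0.29 and -0.27 at 4 and 168 h of AP and 12, 24 and 168 h of MP, and the number of all probes called to 201 at 4 h of AP, 323 at 12 h and 1536 at 168 h of MP, and 441, 2028 and 172 for the differences at 12, 24 and 168 h. Relative to that median Gata1 and Trim10 at 168 h of AP were 0.96 and 1.47, beside 1.04 and 1.57 as reported, and Nfe2 and Rhag at 4 h were 1.08 and 1.38, beside 1.12 and 1.45. The share of all calls that were higher went from 27.7% to 3.9% at 168 h of AP, from 38.8% to 20.1%, 30.5% to 2.3% and 49.9% to 10.9% at 12, 24 and 168 h of MP, and from 52.9% to 96.6%, 46.2% to 77.2% and 78.6% to 97.1% for the differences at 12, 24 and 168 h. The other erythroid genes called higher became 0 at 4 h of AP, 0 at 168 h of AP, 1 at 12 h of MP, 0 at 24 h of MP and 1 at 168 h of MP, and those lower 3 at 12 h of AP. The platelet genes called higher became 3 at 4 h of AP and 0 at 12 h of MP, the neutrophil genes higher 0 at 168 h of AP, 2 at 12 h and 0 at 168 h of MP, the T cell genes lower 3 at 4 h and 8 at 168 h of AP, and the Rh genes higher 0 at 24 h of AP. Of 40 calls of named list genes 30 were kept. The correlation of Nfe2 and Trim10 was 0.41 (0.0665), and the ratios of Gata1 to Trim10 at 4 h (-0.08) and Rhag to Trim10 at 12 h of AP (-0.04) changed sign.

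With no detection filter (more probes to adjust over) the calls of Rhag at 4 h (1.42, 0.0554), Gata1 (0.98, 0.0675) and Trim10 (1.51, 0.0506) at 168 h of AP and the 24 h differences of Gata1 (-1.11, 0.0791) and Rhag (-1.55, 0.0816) were lost. With no variance trend Gata1 at 168 h of AP (0.98, 0.0562) and the differences of Gata1 (-1.11, 0.0617) and Rhag (-1.55, 0.0595) were. With only the groups compared in the fit, Nfe2 (1.09, 0.0873) and Rhag (1.42, 0.141) at 4 h of AP, Trim10 at 168 h of AP (1.51, 0.0691), Gata1 at 12 h of MP (1.08, 0.0867) and the differences of Gata1 (-1.11, 0.0725) and Rhag (-1.55, 0.0548) were lost, and that of Nfe2 at 12 h was called (0.88, 0.0349). The replicate block ended the calls of the 24 h differences of Gata1 (-1.11, 0.0508) and Rhag (-1.55, 0.059) and no other. Whether the replicate numbers pair the rats is not given in the labels.

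Array weights called Gata1 at 4 h of AP (0.91, 0.0103), Trim10 at 12 h of AP (0.78, 0.0378), Rhag at 24 h of AP (-1.38, 0.000664), Nfe2 (0.73, 0.00432) and Trim10 (1.03, 0.029) at 12 h and Gata1 (1.14, 0.0188) and Nfe2 (0.82, 0.0286) at 24 h of MP, and the differences of Nfe2 at 4 h (1.02, 0.0191) and 12 h (0.79, 0.0218), Gata1 at 12 h (-0.95, 0.0343) and Trim10 at 168 h (1.77, 0.0464). They turned Rhag at 4 h (-0.023), 12 h (-0.075) and 168 h (-0.19) and Trim10 at 4 h of MP (0.11). With all 8 vehicle rats, Rhag at 24 h of AP (-1.09, 0.0135), Nfe2 (0.61, 0.0294) and Trim10 (1.19, 0.0257) at 12 h and Gata1 (1.06, 0.0245) and Nfe2 (0.77, 0.0363) at 24 h of MP were called, Trim10 at 168 h of AP (1.12, 0.0707) was not, and Trim10 changed sign at 24 h of AP (-0.022) and 4 h (0.28) and 168 h of MP (0.17). Of all probes, no detection filter called 540 at 4 h of AP, 659 at 12 h and 157 at 24 h of MP and 211 for the 168 h difference, beside 842, 1029, 305 and 435 as reported. Array weights called 2601 at 168 h of AP, beside 1421, and 757, 3007 and 1356 for the differences at 4, 12 and 168 h, beside 0, 1463 and 435. All 8 vehicle rats gave 2870 calls at 12 h of MP, and only the groups compared 175 for the 168 h difference. The causes were not tested.

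Without 1 rat at a time, values that lost their call in some fits ranged from 1.05 to 1.83 for Rhag at 4 h, 0.84 to 1.16 for Gata1 and 1.12 to 1.95 for Trim10 at 168 h of AP, 0.75 to 1.27 for Gata1 at 12 h of MP, and -1.32 to -0.78 for Gata1 and -1.92 to -1.21 for Rhag in the 24 h difference. Those that gained a call ranged from 0.70 to 1.12 for Gata1 at 4 h and -1.32 to -0.62 for Rhag at 24 h of AP, 0.53 to 0.76 (12 h) and 0.60 to 1.04 (24 h) for Nfe2 and 0.61 to 1.15 for Gata1 at 24 h of MP, and 0.86 to 1.28 (4 h) and 0.53 to 0.97 (24 h) for Nfe2 and 1.29 to 2.18 (168 h) for Trim10 in the differences. Uncalled values that turned ranged, at 24 h of AP, from -0.283 to 0.011 for Gata1 and -0.016 to 0.81 for Trim10, and at 168 h of AP from -0.23 to 0.06 for Nfe2 and -0.515 to 0.19 for Rhag. At 4 h of MP they ranged from -0.091 to 0.43 for Gata1, -0.086 to 0.155 for Nfe2 and -0.405 to 0.20 for Trim10, at 12 h from -0.25 to 0.27 for Rhag, and at 168 h from -0.026 to 0.315 for Nfe2, -0.18 to 0.22 for Rhag and -0.64 to 0.22 for Trim10. The differences of Trim10 ran from -0.66 to 0.17 at 12 h and -0.69 to 0.14 at 24 h, and that of Rhag from -0.555 to 0.15 at 168 h. Where a group fell to 2 rats the fit pooled the spread over all groups. The signal over background limits Rhag and Trim10, which were not above background in 2 and 2 of the 38 rats.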
